A study of Homo sapiens with 3 samples.

Results

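The sites described here are the 678 positions, of 10407 listed for DDX41-ADARcd against ADARcd alone (6.51%), at which at least 2 reads of the fusion library carried the edited base and made up at least 10% of its reads. They were chosen by these read counts, so their edited reads, depth and level are given as a description. HyperTRIBE marks RNA near a protein by joining it to a hyperactive catalytic domain of ADAR (ADARcd), and the marked adenosines are read as A-to-G changes. All 3 libraries came from THP-1, a human monocytic leukemia line, and total RNA was taken at day 7 of growth after transduction with a pGK-GFP retrovirus. The retrovirus was empty, carried ADARcd alone, or carried DDX41 fused to ADARcd (DDX41-ADARcd), so all cultures had been transduced, and no label names a deletion of the cells' own ADAR enzymes or DDX41. There was 1 library in each group and no replicate error, so each comparison is of reads between libraries, and no test of a condition was possible.

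ADAR enzymes convert adenosine to inosine in double-stranded RNA, and inosine is read as G. In human transcripts most of their own targets lie in repeats of the Alu family, where a copy in the reverse orientation nearby lets the RNA fold back on itself, and most of these lie in introns and 3′ UTRs. The enzymes disfavour a G just before the edited A and favour a G just after it. DDX41 is an RNA helicase of the DEAD-box family whose gene is a known target of mutation in myeloid cancers.

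The bases around 8 sites that had at least 4 edited reads are shown first, chosen after their sequences were compared, because pairs of them are alike in unrelated genes or a matching stretch lies nearby in the opposite orientation. Each line gives 10 bases on either side of the edited adenosine, read 5′ to 3′ on the annotated transcript (GENCODE 29, GRCh38, T for U), with the edited A in capitals.
RNF24: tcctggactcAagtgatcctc
BPNT1: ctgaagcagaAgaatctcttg
APOL6: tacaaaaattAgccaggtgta
SLC35E2B: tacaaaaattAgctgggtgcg
CRCP: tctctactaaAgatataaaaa
ZNF431: ggtttcaagcAactcttctgc
PGPEP1: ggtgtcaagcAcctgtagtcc
GINS1: ctccgtctctAcaaaaaatag

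These 8 sites lie in annotated 3′ UTRs of 8 genes. The windows of APOL6 and SLC35E2B were identical at 17 of 21 bases, and those of ZNF431 and PGPEP1 at 15 of 21. In GINS1, a replication factor, the same transcript holds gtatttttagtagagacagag 743 bases before the site, which pairs with 18 of the 21 bases of the window when laid antiparallel. For the site of BPNT1 the best partner was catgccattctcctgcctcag, 555 bases after it, with 16 pairs, and for ZNF431 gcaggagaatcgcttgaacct, 633 bases after it, also with 16. Not all such sites had a partner of this kind. Sequence was available at 17 sites with at least 4 edited reads, and the site of PLEKHA2 is left out of this count. Of the other 16, 9 had a best partner within 1500 bases with 15 or more pairs. The remaining 7 had 12 or 13, which is where the median of all listed sites lies (13).

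The 3 deposited lists hold counts at single positions and not the total reads of the libraries. At the 678 sites the fusion library had a median of 11 reads (quartiles 8 to 15, range 2 to 31), and ADARcd alone a median of 16 (range 10 to 72). The median ratio of fusion reads to ADARcd reads was 0.625 (0.611 to 0.643, 95% interval of the median), against 0.661 over all listed sites. All listed sites had a median of 30 reads in the fusion library, so the 678 sites are on the shallow side of the list, as the minimum of 10% requires. Among the 4015 listed sites with 2 to 20 fusion reads, 665 (16.6%) met the rule. The 95% interval of a share is Clopper-Pearson's exact one. Intervals cover counting error only, since reads without molecular identifiers are not independent molecules. Of 28 monocytic marker genes 14 had a listed site, among them LYZ, SPI1, PRTN3 and ELANE, while others, such as CD14, CD33 and MPO, had none. CD4 was the only one of 15 T, B and NK cell markers with a listed site, and no erythroid, megakaryocyte, epithelial or fibroblast marker had one. The lack of a listed site does not show that a marker was not expressed.

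Most sites met the rule with the smallest number of reads it allows. Of the 678, 614 (90.6%) had 2 edited reads, 45 had 3, 13 had 4, and 6 had 5 or more. The level lay from 10% to under 20% at 350 sites, from 20% to under 50% at 276, and at 50% or more at 52, with a median of 18.2%. All 6 sites at 100% had 2 reads in all, both edited: 1 each in RLF, SMAP2, LYST and DEF6 and 2 in GPSM2. Summed over the sites, 1453 of 7834 fusion reads carried the edited base (18.5%, 17.7 to 19.4) and 0 of 12624 reads of ADARcd alone. The 0 is part of how the list was made, since every listed position has no edited read in the control. Bases other than A and G on the transcribed strand made up 7 of 7834 fusion reads (0.0894%) and 8 of 12624 reads of ADARcd alone (0.0634%). At the 1-read sites of 2 to 20 fusion reads, used for comparison below, such bases were more frequent, at 179 of 37945 fusion reads (0.472%) and 91 of 66068 reads of ADARcd alone (0.138%).

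**Figure D1:**
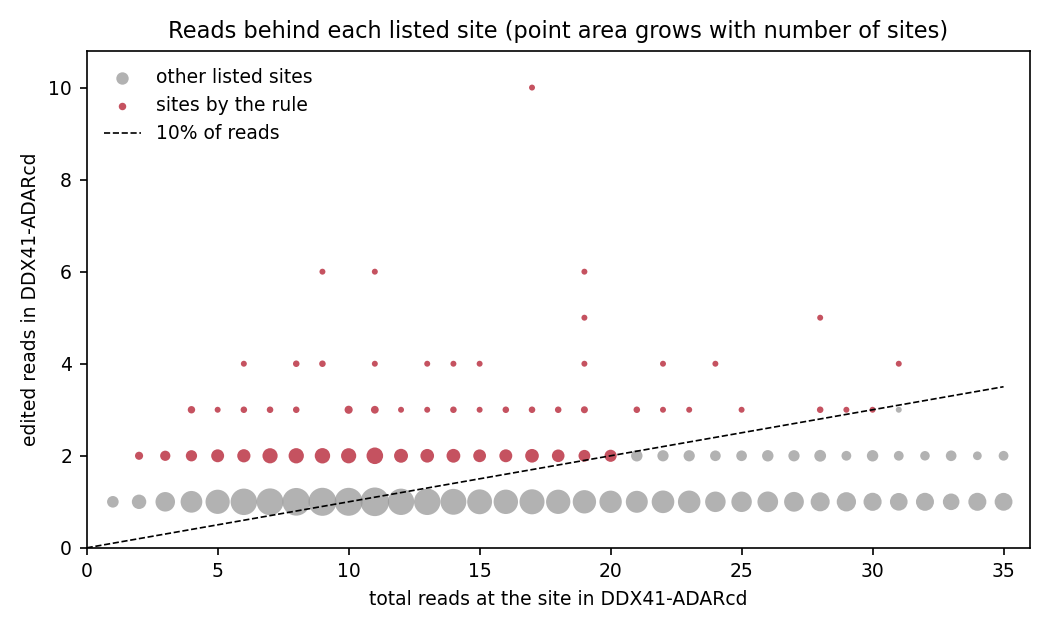
Edited reads in the fusion library (vertical axis, reads) against all its reads at the position (horizontal axis, reads) for listed sites of DDX41-ADARcd against ADARcd alone; point area grows with the number of sites at the same pair of counts, up to 35 reads, and the line marks 10%. Of the 678 sites that meet the rule, 614 lie in the row of 2 edited reads, and RNF24 stands highest with 10 edited of 17 reads.

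Depth limits what a single site shows. A count of 0 in ADARcd alone allows a level of up to 3 reads of its depth, and the fusion level was above that floor at 407 of the 678 sites (60%). The lower end of the 95% interval of the level was above the floor at 4 sites: the sites of BPNT1, RNF24 (chr20:3929317), PRR11 (chr17:59203390) and PGPEP1 (chr19:18367045). Both counts use the level by which the sites were chosen, so they are a description only. They were not made for the other listed sites. The 24 sites just inside the level threshold had 2 edited of 20 reads (10%), and the 20 just outside had 2 of 21 (9.52%). Of those just inside, 10 lay in 3′ UTRs, and of those just outside, 12. With 18 to 20 reads on the inner side and 21 to 23 on the outer, 3′ UTRs held 31 of 73 (42.5%) and 33 of 58 (56.9%), so near the threshold the share was not higher inside it.

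The highest counts were in genes of unrelated function. RNF24, a RING-finger protein, had 10 of 17 reads edited at chr20:3929317 on the minus strand (58.8%, 32.9 to 81.6), against 0 of 17 in ADARcd alone. BPNT1, a phosphatase of the sulfate assimilation pathway, had 6 of 11 at chr1:220058640 (54.5%, 23.4 to 83.3), against 0 of 13. APOL6, an apolipoprotein L, had 6 of 19 at chr22:35661210 (31.6%, 12.6 to 56.6), against 0 of 19. These 3 are 3′ UTR sites, and their intervals overlap each other.
PRR11, a gene of the cell cycle, had 6 of 9 at chr17:59203390 (66.7%), against 0 of 16, in an intron by GENCODE and an exon by the deposited list. GM2A, the activator of GM2 ganglioside breakdown, had 5 of 28 at chr5:151268256 (17.9%), against 0 of 38. CRCP, a subunit of RNA polymerase III, had 5 of 19 at chr7:66153900 (26.3%), against 0 of 12. The last of these had fewer reads in ADARcd alone than in the fusion library.

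Another 13 sites had 4 edited reads, at levels from 12.9% to 66.7%. ZNF431, a KRAB zinc finger gene, had 4 of 6 reads at chr19:21185564 (0 of 12 in ADARcd alone), and TAF1D, a subunit of the RNA polymerase I selectivity factor and a snoRNA host, 4 of 8 (0 of 10). CHTOP, an mRNA export factor, had 4 of 8 (0 of 14), AAK1, a kinase of clathrin-mediated endocytosis, 4 of 9 (0 of 10), and PGPEP1, a pyroglutamyl peptidase, 4 of 9 at chr19:18368006 (0 of 10). MMACHC, which processes vitamin B12, had 4 of 11 (0 of 11), NFYC, a subunit of the CCAAT-binding factor, 4 of 13 in an intron (0 of 12), and ST3GAL3, a sialyltransferase, 4 of 14 (0 of 21). These shallow sites have wide intervals; that of ZNF431 ran from 22.3% to 95.7%.
The deeper sites of this group had lower levels: SLC35E2B 4 of 15 at chr1:1663635 (0 of 33), PLEKHA2 4 of 19 (0 of 24), PGAM5 4 of 22 at chr12:132722351 (0 of 41), GINS1 4 of 24 at chr20:25447965 (0 of 24) and SPN 4 of 31 at chr16:29670188 (0 of 63). SPN encodes CD43, a sialoglycoprotein of the leukocyte surface, and PGAM5 is a mitochondrial phosphatase. Among sites with at least 10 fusion reads, 11 had a level of 30% or more, from 58.8% in RNF24 down to 6 sites tied at 30%, and 4 of the 11 were in NFYC. The tied sites had 3 of 10 reads edited and lay in NFYC, PEX26, CNPY3-GNMT and SMA5. That of CNPY3-GNMT was at chr6:42943175 in an intron (0 of 15 in ADARcd alone), and SMA5 had 0 of 13 in ADARcd alone.

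By their position in the gene, more of the 678 sites lay in 3′ UTRs and introns than of all listed sites. Of them 308 lay in 3′ UTRs (45.4%, 41.6 to 49.3), 213 in coding exons (31.4%), 114 in introns (16.8%), 25 in non-coding exons, 10 in 5′ UTRs and 8 in no annotated gene. Over all listed sites the shares were 28.6% in 3′ UTRs, 58.1% in coding exons and 6.92% in introns. Depth differs between these groups, so the closest comparison is with the 3350 listed sites of 2 to 20 fusion reads with 1 edited read, which had the same median depth of 11. Of these, 36.9% (35.2 to 38.5) lay in 3′ UTRs, 43.8% in coding exons and 11.6% in introns. Outside a stretch of chromosome 1 described below, 71 of 619 of the chosen sites lay in introns (11.5%), near that 11.6%. The share of 1-read sites outside the stretch was not computed, so an excess in introns is not shown beyond it. The intervals take each site as separate, which neighbouring sites are not. Sites of ADARcd alone against the empty vector chosen by the same 2 reads and 10% (57 of 6413, 0.889%) lay in 3′ UTRs at 31 of 57 (54.4%, 40.7 to 67.6), in coding exons at 25 and in introns at 1 (1.75%, 0.0444 to 9.39). Their 3′ UTR share was thus no lower than that of the fusion sites, although they were deeper, with a median of 112 reads.

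**Figure D2:**
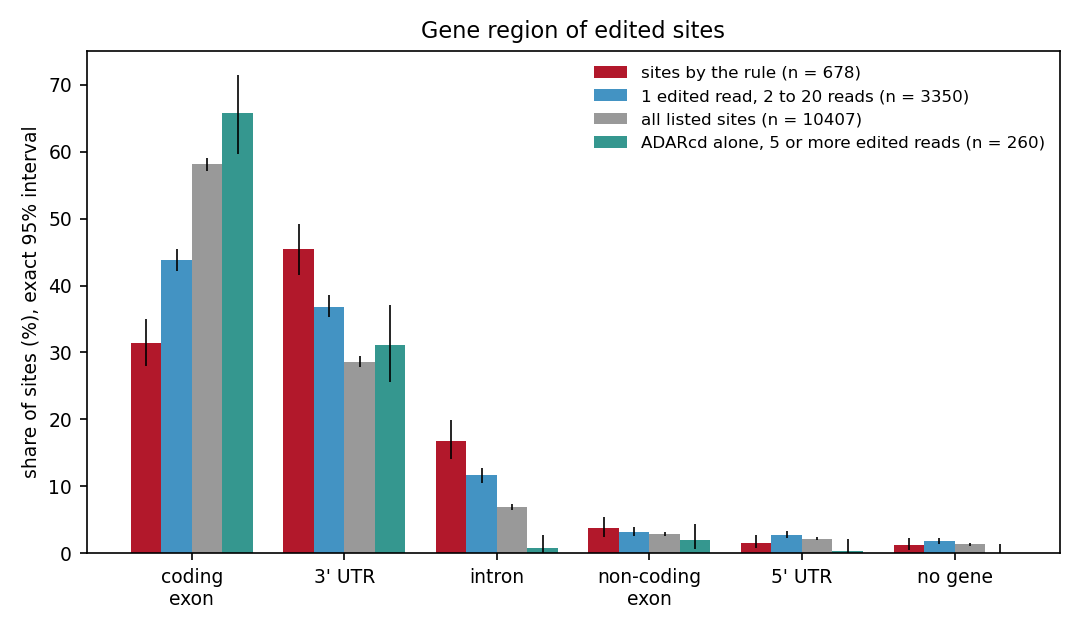
Share of sites (vertical axis, percent) in each part of the gene (horizontal axis, GENCODE 29) for the 678 sites and the groups of sites set beside them; bars are shares and lines exact 95% intervals. The 678 sites have 45.4% in 3′ UTRs and 31.4% in coding exons, against 28.6% and 58.1% over all listed sites.

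Position in the gene differed by the number of edited reads. Sites in 3′ UTRs made up 266 of 614 with 2 edited reads (43.3%), 26 of 45 with 3 (57.8%) and 16 of 19 with 4 or more (84.2%, lower bound 60.4). Coding exons held 208 of the 614 (33.9%), 5 of the 45 (11.1%) and 0 of the 19 (upper bound 17.6%). The other 3 of the 19 were 2 in introns by GENCODE, in PRR11 and NFYC, and 1 in a non-coding exon, in CHTOP. Listed sites with 2 or more edited reads under 10% lay in 3′ UTRs at 240 of 999 (24%) and in coding exons at 65.5%. They were deeper, with a median of 71 fusion reads, so more edited reads did not go with 3′ UTRs over the whole list.

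The bases next to the edited A could be read at 553 of the 678 sites, those on an annotated transcript. G stood before the A at 120 of them (21.7%, 18.3 to 25.4), T at 102 (18.4%, 15.3 to 21.9), and G after it at 213 (38.5%, 34.4 to 42.7). At sites with 1 edited read and the same depth, G came before the A at 26.7%, T at 15.5%, and G after it at 37%. The other adenosines within 50 bases of the 678 sites had G before at 25.4%, T before at 16.1% and G after at 29.5%. The 678 sites thus held somewhat less G before the A than the adenosines around them, with an interval that nearly reaches the same share, and more G after it.

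The well-read sites of ADARcd alone had another pattern. Among positions listed for ADARcd alone against the empty vector, 260 carried at least 5 edited reads. At these, T came before the A at 44.9% (38.7 to 51.2), G at 4.30% (2.16 to 7.56), and G after it at 55.1% (48.8 to 61.3). At the sites of ADARcd alone chosen by the same 2 reads and 10%, G came before the A at 1 of 54 and T at 31 of 54. Both groups were far deeper than the 678 sites, with medians of 342.5 and 112 reads in ADARcd alone, so depth and library cannot be told apart here. By edited reads, G came before the A at 114 of 501 sites of the 678 with 2 edited reads (22.8%), 4 of 35 with 3 (11.4%) and 2 of 17 with 4 or more (11.8%), and T at 18.4%, 20% and 17.6%. At the listed sites with 2 or more edited reads under 10%, G came before the A at 29.6%.

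**Figure D3:**
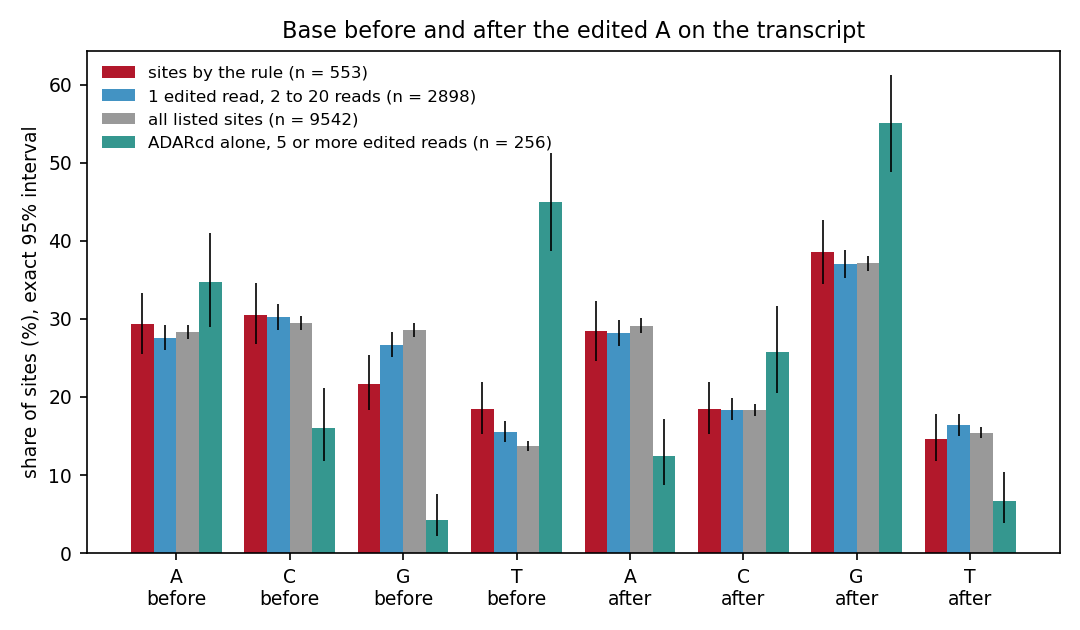
Share of sites (vertical axis, percent) with each base before and after the edited A (horizontal axis, base on the transcript), with exact 95% intervals. The sites of ADARcd alone with 5 or more edited reads have T before the A at 44.9% and G at 4.30%, while the 678 fusion sites have 18.4% and 21.7%.

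Sequence shared with many other genes was common around the sites. For 551 sites with a full window, the 51 central bases were split into words of 21 bases and looked up, on both strands, in the longest transcripts of all other genes. A word occurred in 10 or more other genes at 179 sites (32.5%, 28.6 to 36.6), against 19.4% of 1-read sites of the same depth and 13.9% of all listed sites. Sites of ADARcd alone chosen by the same rule had such a word at 14 of 53 (26.4%, 15.3 to 40.3). Within 3′ UTRs the gap to the 1-read sites was smaller, 51.1% (45.4 to 56.9) against 40% (37.3 to 42.8). At 141 sites (25.6%) a word occurred in 100 or more other genes, against 15.4% and 8.17%. By edited reads, a word in 10 or more genes was found at 141 of 499 sites with 2 (28.3%), 24 of 35 with 3 (68.6%) and 14 of 17 with 4 or more (82.4%). A word in 100 or more was found at 23.2%, 51.4% and 41.2%, so by that measure the sites with most edited reads were not the highest. Listed sites with 2 or more edited reads under 10% had a word in 10 or more genes at 11.7%. The 51 bases of the site in PGAM5 had a word in 3168 other genes, while no other gene held a word of the MMACHC site with 4 edited reads.

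The same sites often had a matching stretch in the opposite orientation on their own transcript. A match was counted where the site with 50 bases on either side aligned, reversed and complemented, to the transcript within 1500 bases on either side with a score of 40 or more (1 for a match, -1 for a mismatch). It was found at 95 of 551 sites (17.2%, 14.2 to 20.7), against 7.84% of 1-read sites of the same depth, 4.12% of all listed sites and 4.72% of the well-read sites of ADARcd alone. At sites of ADARcd alone chosen by the same rule it was found at 9 of 53 (17%, 8.07 to 29.8), a share like that of the 678. By edited reads it was found at 71 of 499 sites with 2 (14.2%), 16 of 35 with 3 (45.7%) and 8 of 17 with 4 or more (47.1%). A partner with 17 or more pairs of 21 bases was found at 10.4%, 31.4% and 17.6%. Listed sites with 2 or more edited reads under 10% had a match at 2.11%.
Of the 95, 92 lay in 3′ UTRs and none in coding exons. Since 3′ UTR sites are over-represented, the comparison was repeated within 3′ UTRs: 92 of 305 sites (30.2%, 25.1 to 35.7) had a match, against 18% (15.9 to 20.3) of 1-read sites. In coding exons it was 0 of 213 and 0 of 1465. Sites with a match had G before the A at 10 of 95 (10.5%, 5.16 to 18.5) and those without at 110 of 456 (24.1%, 20.3 to 28.3). Those without a match include all the coding exon sites, and in 3′ UTRs as a whole G came before the A at 57 of 307 (18.6%). This comparison was not repeated within 3′ UTRs, so region and match cannot be told apart in it.

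**Figure D4:**
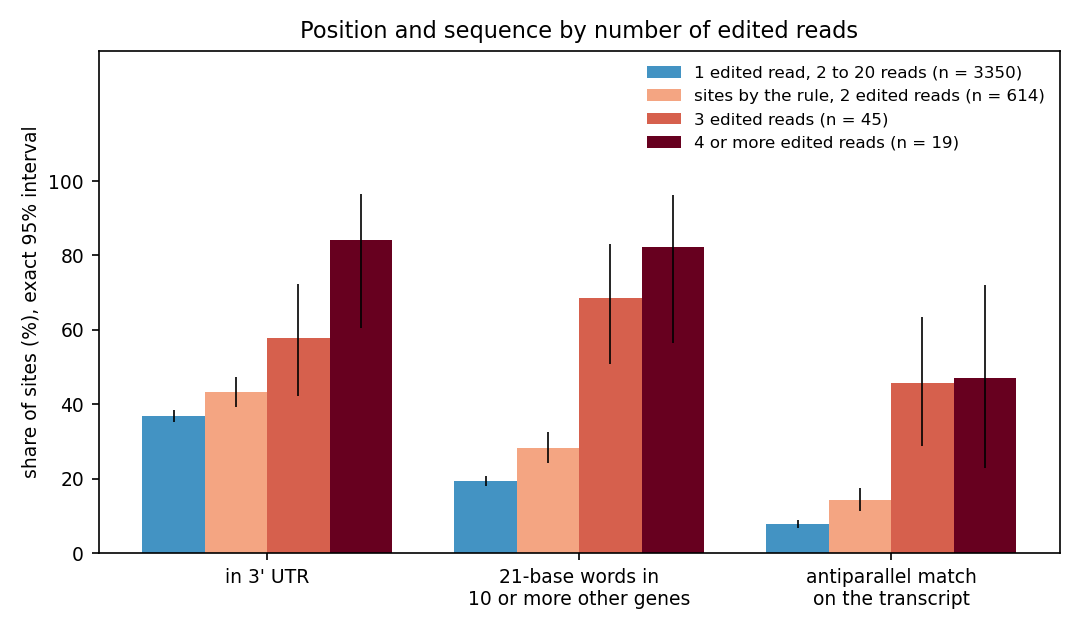
Shares of sites (vertical axis, percent) in 3′ UTRs, with words shared with 10 or more other genes and with an antiparallel match on the transcript (horizontal axis), for 1-read sites of the same depth and for the 678 sites by their number of edited reads (bars), with exact 95% intervals; counts of sites with sequence are lower than those in the key. From 2 to 4 or more edited reads the share with shared words goes from 28.3% to 82.4% and that with a match from 14.2% to 47.1%.

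The immediate surroundings of the A were rarely identical between genes. Taking only the 11 bases centred on the A, 42 of 553 sites (7.59%) shared their word with a site of another gene of the 678. The corresponding share was 8.25% among the 2896 1-read sites, a larger group. The most shared word was cccaaAgtgct, in CTSS, INPP5B, STYX, ZNF587 and ZNF710-AS1, followed by tcccaAagtgc in 4 genes, the same stretch read 1 base earlier. The predicted folding energy of the site with 50 bases on either side had a median of -23.3 kcal/mol (-24.2 to -22.6), against -23 for 1-read sites, and the difference was within the interval. At sites with 3 or more edited reads the median was -28.9 kcal/mol.

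The 678 sites fell in 505 genes, of which 422 had 1 site, 83 had 2 or more and 25 had 4 or more. Neighbouring sites may be the same reads, which the lists do not show, so sites of 1 gene are not separate measurements. In all, 119 sites (17.6%, 14.8 to 20.6) lay within 100 bases of another of the 678, in 51 groups, 19 of which spanned 10 bases or fewer. Another listed site of any level lay within 100 bases of 225 sites (33.2%), against 24.2% of 1-read sites of the same depth. STYX, a pseudophosphatase, shows how close they can be: at 3 adjacent positions from chr14:52773598 the fusion library had 2 of 10 reads edited and ADARcd alone 0 of 14.

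In RNF24 all 5 sites lay in 459 bases of the 3′ UTR. Beside the 10 of 17 reads at chr20:3929317, the fusion library had 2 of 18 edited at a site 30 bases away, 2 of 11 at chr20:3929074, and 2 of 8 and 2 of 9 at the adjacent positions chr20:3928889 and chr20:3928888. ADARcd alone had 17 to 23 reads at the 5 sites. The site at chr20:3928889 and its best partner, 319 bases earlier in the transcript, pair at 19 of 21 bases.
RNF24 3928889: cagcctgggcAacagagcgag
partner: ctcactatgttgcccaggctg

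In PEX26, which anchors the peroxisomal import machinery, all 5 sites were in the 3′ UTR and all had an antiparallel match. At the adjacent positions chr22:18088601, chr22:18088602 and chr22:18088603 the fusion library had 2 of 10, 3 of 11 and 3 of 11 reads edited, at chr22:18088682 it had 3 of 10, and at chr22:18089887 2 of 5. ADARcd alone had 10 to 13 reads at these positions.

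PGPEP1 also had 5 sites in its 3′ UTR, all with a match. The fusion library had 3 of 4 reads edited at chr19:18367045, 4 of 9 at chr19:18368006, 2 of 10 at chr19:18367964 and 2 of 7 at both chr19:18365624 and chr19:18368022, against 10 to 17 reads in ADARcd alone. GM2A had 4 sites within 80 bases and none with a match. They had 3 of 28 and 5 of 28 reads edited at the adjacent positions chr5:151268255 and chr5:151268256, 2 of 14 and 2 of 20 at the other two, and 30 to 38 reads in ADARcd alone. Of the 6 sites of PRR11, 4 lay in the 3′ UTR and 2 in introns, at levels from 10.7% to 66.7%. MAGT1, a magnesium transporter and oligosaccharyltransferase subunit, had 4 sites with a match at levels from 10% to 17.6%, and INPP5B, an inositol phosphatase, 4 at 13.3% to 22.2%; both were named after their values were seen.

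**Figure D5:**
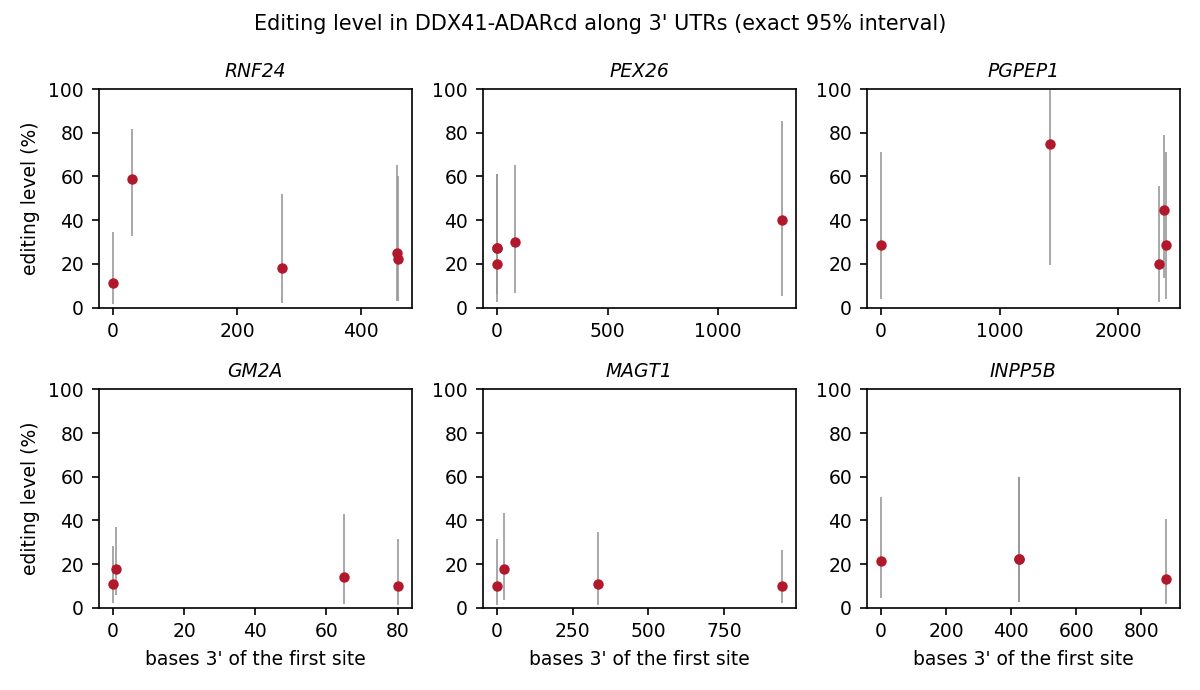
Editing level in the fusion library (vertical axis, percent of its reads) at each of the 678 sites in the 3′ UTRs of RNF24, PEX26, PGPEP1, GM2A, MAGT1 and INPP5B, against the distance from the first of them (horizontal axis, bases in the direction of transcription); points are sites and lines exact 95% intervals. The RNF24 site at 58.8% and the PGPEP1 site at 75% stand highest, the intervals are wide, and adjacent sites with equal counts overlap.

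Introns held the largest numbers of sites per gene. NFYC had 11 of the 678 sites among its 58 listed sites, 10 in introns and 1 in a 5′ UTR, with 7 to 13 fusion reads, 10 to 18 reads in ADARcd alone and levels from 22.2% to 30.8%. LYST, a regulator of lysosome size, had 11 of 43, all in introns, with 2 to 8 fusion reads and levels from 25% to 100%. Its 5 sites from chr1:235857061 to chr1:235857141 had 2 edited reads each, of 4, 8, 8, 8 and 8. SMAP2, an ARF GTPase-activating protein, had 6 sites, and TRIT1, a tRNA-modifying enzyme, and KDM4A, a histone demethylase, had 5 each, all in introns. With 1 exception, LYST, these genes lie in chromosome 1 from 37 to 46 Mb. That stretch held 59 of the 678 sites (8.70%, 6.69 to 11.1) and 551 of all listed sites (5.29%). In it 43 of the 59 sites were intronic (72.9%), against 71 of the 619 elsewhere (11.5%) and 206 of the 551 listed sites of the stretch (37.4%). The 11.5% was near the 11.6% of all 1-read sites of the same depth, whose share was not computed without the stretch. Intron sites have no sequence here, so the counts on bases, words and matches leave them out.

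The gene lists were read against the 6.51% of all listed sites, or the 16.6% at 2 to 20 reads where depth differs. Genes known to carry A-to-I editing of their own had 14 of 93 listed sites among the 678 (15.1%), or 14 of 54 at 2 to 20 reads (25.9%), in 9 genes; all 14 lay in 3′ UTRs and 8 had a match. BPNT1 had most edited reads, followed by MDM2, the ubiquitin ligase of p53, with 3 of 19 reads at chr12:68843731 (0 of 36 in ADARcd alone). MAVS, the adaptor of RNA sensing, had 2 of 6 (0 of 11) and 2 of 14 (0 of 10), and F11R, a junction protein, 2 of 7 (0 of 14). In the list of RNA and DNA sensing genes the 2 MAVS sites were those that met the rule, of 25 listed sites (8%). At 2 to 20 reads it was 2 of 13 (15.4%), so both shares were near those over all listed sites.

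Zinc finger genes named ZNF and a number had 30 of 178 listed sites (16.9%), or 30 of 163 at 2 to 20 reads (18.4%). The latter share was near the 16.6% of that depth. Not all of these genes are of the KRAB type, so the shares do not describe that type alone. ZNF431 had 4 and 3 of 6 reads edited at adjacent positions and ZNF611 3 of 4 (0 of 12). ZNF91 had 3 of 16 in a coding exon (0 of 29). Of the 87 listed sites in R-loop and DNA repair genes 7 met the rule (8.05%), or 7 of 34 at 2 to 20 reads (20.6%). They included 2 of 4 reads in ATM, the kinase of the double-strand break response (0 of 12), 2 of 6 in RNASEH2C, a subunit of RNase H2 (0 of 11), and 2 of 9 in both CHEK1 (0 of 10) and BRCA2 (0 of 12).

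In gene classes with deep listed sites few sites met the rule, and at 2 to 20 reads their shares lay on both sides of the 16.6% of that depth. Ribosomal protein genes had 0 of 441 listed sites; their listed sites had a median of 594 fusion reads and only 2 had 2 to 20 reads, and 2 edited reads at that median depth are far under 10%. Non-ribosomal snoRNA hosts had 3 of 152, or 3 of 9 at 2 to 20 reads (33.3%): the TAF1D site, GAS5 with 3 of 17 reads (0 of 17), and SNHG3 with 2 of 17 (0 of 15). Spliceosome and SR protein genes had 4 of 185, or 4 of 30 (13.3%): LUC7L2 with 3 of 13 (0 of 15), SNRPD3 with 2 of 8 (0 of 13) and 2 of 18 (0 of 30), and PRPF4 with 2 of 18 (0 of 21). DEAD- and DEAH-box helicases had 3 of 80, or 3 of 21 (14.3%): DDX55, with 2 of 9 (0 of 15), DDX60L with 2 of 12 (0 of 18) and DDX1 with 2 of 20 (0 of 27). DDX41 itself had 23 of these 80 listed sites, and the same 23 count among the 185 of spliceosome genes. The lists do not tell reads of the cells' own DDX41 from those of the transgene. Of the monocytic markers only SPN was among the 678, with 4 of the 98 listed sites (4.08%), or 2 of 16 at 2 to 20 reads (12.5%). Beside the 4 of 31 reads SPN had 3 of 23 (0 of 72), 2 of 10 (0 of 10) and 2 of 14 (0 of 21).

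Few of the sites could be looked up in the empty vector. The lists against the empty vector hold only positions with 10 or more of its reads and no edited read in it. In the list of ADARcd alone its median was 27 against 286 in ADARcd alone. A site with too few reads and a site edited in the empty vector would both be missing, and these cannot be told apart here. Of the 678 sites 1 was also listed against the empty vector, ZKSCAN1, a zinc finger gene, at chr7:100041506 in the 3′ UTR, with 2 of 8 reads edited in the fusion library, 0 of 11 in ADARcd alone and 0 of 10 in the empty vector. Applied to DDX41-ADARcd against the empty vector, the same rule held at 8 of 3516 sites (0.228%). The rule depends on fusion depth, which was not compared between the 2 lists. This share and the 6.51% against ADARcd alone therefore do not show a difference in editing. Within 100 bases of a site listed for ADARcd alone against the empty vector lay 4 of the 678, in GAS5, HNRNPU, HNRNPH1 and CA2. The neighbouring ADARcd sites had 1 to 3 edited reads, at levels from 0.101% to 2.24%. ADARcd alone had far more reads at those neighbours than at the 4 sites themselves: 126 against 17 at a distance of 13 bases in GAS5, 205 against 32 at 57 bases in HNRNPH1, 987 against 15 at 83 bases in CA2 and 534 against 20 at 100 bases in HNRNPU.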

How the data were processed

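RNA of 3 THP-1 libraries was compared, 1 per group. The deposited lists hold counts made by the authors: per the file headers, reads with A, T, C and G at 1 position in each of 2 libraries, not normalized. Columns carry no library name, so the first library of a list's title was taken as edited and the gDNA/wtRNA columns as its control. Totals of the fusion library were equal at 3114 of 3114 positions shared by both of its lists. Those of ADARcd alone had a median ratio of 1.0 (quartiles 0.957 to 1.043) over 1832 pairs of positions within 20 bases. Per the submitters' processing notes, STAR 2.5, FastQC 0.11.7 and CASAVA 1.4 were used, without a stated role, and a mouse build (mm10) is named. How sites were called, filtered and annotated is not given in the sources used here. Coordinates fit GRCh38: 15754 of 15766 positions on a GENCODE 29 transcript have A on it, and 664 of the 678 sites lie in the gene the list names.

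Entries repeating a position were joined (184), and the strand was taken from the control base. Each site got 1 region, coding exon taking priority over 3′ UTR, that over 5′ UTR, then any non-coding exon and last an intron. Sequence came from GENCODE 29 transcripts. Folding used ViennaRNA 2.7.2 and alignment Biopython 1.88, with gap costs of -2 and -1; Python 3.11.15, pandas 2.3.3, numpy 2.4.6, SciPy 1.17.1 and matplotlib 3.10.9 did the rest. The counting steps were checked on simulated data. Intervals are exact Clopper-Pearson (shares) or from order statistics (medians).

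The sites and gene lists were chosen with earlier results of these data known. Named are sites with 4 or more edited reads, the 10 highest levels at 10 or more reads (the last place was tied), the 10 genes with most sites and up to 4 sites of each gene list; STYX, ZKSCAN1, MAGT1, INPP5B, the genes at 100% and those near ADARcd sites were added after their values were seen. Shared words and antiparallel matches were also chosen after seeing the data. Soft-masked repeats were not used here. Some site and partner sequences are not reported here.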

Additional observations from a re-analysis of the deposited data

How the results depend on the processing

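Of 87 alternatives over 13 results, 53 stayed within the 95% interval of the value reported, or within 1.5 times a count, and 34 did not. A minimum of 3 edited reads left 64 sites, with 11.5% G before the A, 65.6% in 3′ UTRs, 10.9% within 100 bases of another, 1.56% near a site of ADARcd alone, 0% also listed against the empty vector, 46.2% with a match, 73.1% with shared words, a read ratio of 0.711 and a median energy of -28.9 kcal/mol. A minimum level of 20% left 328 sites, with 43.3% G after the A, 24.7% in introns, 23.3% with a match, 40% with shared words, a ratio of 0.513 and -25.3 kcal/mol. At least 10 fusion reads left 421, with 10.7% in introns, 0% listed against the empty vector, a ratio of 0.733 and -22.5 kcal/mol. At least 20 reads in ADARcd alone left 227, with 8.37% in introns, 12.8% near another, 26.5% with shared words, 0% listed against the empty vector, a ratio of 0.537 and -20.9 kcal/mol. The deposited regions gave 19.9% in introns, and leaving out chromosome 1 from 37 to 46 Mb, added after seeing the data, 11.5%. A distance of 500 bases gave 22.3%, a window with 100 bases on either side -53.5 kcal/mol, and words in 100 or more genes 25.6%. The cause was not tested. Soft-masked repeats, and 3′ UTRs by the deposited regions, which name only exons and introns, were not run. No paired analysis was possible because each group had 1 library. A site of 11 reads with 2 edited leaves a wide interval, so single levels are imprecise.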
